A study of Mus musculus with 4 samples.

Results

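The replication-dependent histone genes were followed in Tregs, the regulatory T cells that restrain immune responses, from the livers of young mice. The members are all rows of the deposited gene table whose symbol starts with Hist1h, Hist2h, Hist3h or Hist4h, which gave 69 of the 24452 genes listed. They comprise 6 H1, 19 H2A, 19 H2B, 12 H3 and 13 H4 genes, among which Hist1h2al (H2A) and Hist3h2bb-ps (H2B) are annotated as pseudogenes. The series compared Tregs with (Altre-WT) and without (Altre-KO) the long non-coding RNA Altre, with 2 libraries of each genotype and 4 in all. The labels give the tissue, cell type, genotype and replicate number of each library, and the series text gives the mice as young. How Altre was deleted and how the cells were sorted is not stated in those labels. Nor do they say whether both libraries of 1 genotype are from different mice, so the p-values below measure only the spread between these libraries, which may be technical. The members were chosen by their symbols, with no measured value in the rule, but the set as a whole was selected on earlier results of the CPM columns in this same contrast. The fitted values below are therefore a description of the set.

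Replication-dependent histone genes supply the protein on which newly copied DNA is packed. H2A, H2B, H3 and H4 form the nucleosome core, and H1 binds the linker DNA between cores. The genes lie in clusters, most lack introns, and their transcripts usually end in a conserved stem-loop in place of a poly(A) tail. The stem-loop is bound by Slbp, which serves cleavage, translation and decay of these messages, so that their level follows the S phase of the cell cycle. Some members also make polyadenylated transcripts, above all in cells that have stopped dividing, and replication-independent variants such as H3f3a and H2afz are made throughout the cycle.

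The stem-loop is shown first because it is what most of these messages share and because its letters differ between H4 and the other classes. A search of the annotated transcripts (GENCODE M21, build GRCm38, sense strand) for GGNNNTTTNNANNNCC with 6 complementary stem pairs (G with T allowed) found it in 44 of 69 members, 63.8%. All 11 members whose annotated model holds only coding sequence lacked it, so the count is 44 of the 58 other members. These 58 include the pseudogenes Hist1h2al and Hist3h2bb-ps, which have no coding sequence. Some others, such as Hist1h2af, have models that reach only a few bases beyond it. In the other protein-coding genes the same search found it anywhere in a transcript in 80 of 21884 genes, 0.366%. Each sequence below runs 5′ to 3′ in the transcript (written with T), the capitals mark the stem-loop, and the 7 members shown are the most abundant of each class and the near-identical H4 genes that matter below.
Hist1h1c: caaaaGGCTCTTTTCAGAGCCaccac
Hist2h2aa1: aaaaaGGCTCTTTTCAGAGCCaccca
Hist1h2be: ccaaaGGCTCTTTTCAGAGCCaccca
Hist1h3f: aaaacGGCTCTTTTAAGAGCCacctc
Hist1h4c: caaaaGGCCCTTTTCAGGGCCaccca
Hist1h4m: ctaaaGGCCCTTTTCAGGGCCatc
Hist1h4n: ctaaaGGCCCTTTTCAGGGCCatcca
All 33 stem-loops found in H1, H2A, H2B and H3 members began GGCTC, whereas those of H4 members began GGCCC in 9 and GGTCC in 2 of 11. The most frequent form, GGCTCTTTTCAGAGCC, stood in 26 members of the H1, H2A, H2B and H3 classes, and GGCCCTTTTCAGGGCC in 7 H4 members. The annotated transcript ended within 100 bases of the stem-loop in 22 members and went on for a median of 761 bases (up to 4884) in the other 22. The members with the longer models had a median level of 81.1 CPM against 38.7 CPM, but 33.6 against 75.9 CPM per kilobase of annotated exon. Their median log2 fold change, Altre-KO over Altre-WT, was 0.21 in both sets.

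Depth and the sharing of reads between copies limit single members. The steps between the deposited values imply 9710058 to 11570128 reads per library, of which 18.8% and 20.6% lay on listed genes in Altre-WT libraries 1 and 2, and 32.8% and 21.5% in Altre-KO libraries 1 and 2. Altre-KO library 1 therefore stood apart from the other 3. The deposited unit, CPM, is relative to the reads on listed genes only. The libraries were made with a SMARTER mRNA-Seq kit, and how far it captured histone transcripts without a poly(A) tail was not tested. The parts of stem-loop and polyadenylated forms in the levels below are therefore not known. Histone members took 7789, 9883, 16499 and 9788 estimated reads, in the same order, and 66, 66, 67 and 67 of the 69 members were above 0. Only 29.9% to 34.3% of the members above 0 had values that came to whole reads within 0.02 of a read, against 93.4% to 94.1% of other genes; how reads that match several copies were treated is not stated. In the annotation, members with whole reads in all 4 libraries (19) shared a median of 30.1% of their 50-base windows with another gene, and the members with fractional values (48) shared a median of 67.4%. By class the whole-read members were 5 H1, 4 H2A, 6 H2B, 0 H3 and 4 H4 genes. Values of single H3 members and of near-identical pairs are therefore uncertain. Sums over a class are less so where the shared reads stay within the class. Some members, such as Hist2h2aa1, Hist2h3c1 and Hist2h2bb, share 100% of their windows with an annotated gene outside the set. Their class sums carry that uncertainty too. All 9 Treg markers were present and summed to 3085 to 3226 CPM. Foxp3 among them was at 79.5 CPM in Altre-KO library 1, against 140.5 to 162 CPM in the other libraries. The 2 CD8 markers summed to 7.11 and 9.25 CPM in Altre-WT and 6.13 and 5.08 CPM in Altre-KO, low in all but without overlap. Of 8 hepatocyte markers 4 were at 0 in every library and the rest summed to at most 6.30 CPM. Markers of NK cells (41.9 to 54.5 CPM), B and plasma cells (146 to 286 CPM), myeloid cells (189 to 318 CPM) and endothelial cells (175 to 224 CPM) overlapped between genotypes. The part of other cell types in the results was not tested. The Altre transcript itself was not analysed here, and the genotypes are as labelled. In bulk samples, fewer cells of a type and less RNA per cell cannot be told apart.

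Summed over all 69 members, histone transcripts stood at 4259 and 4154 CPM in the Altre-WT libraries and at 5051.5 and 4144 CPM in the Altre-KO libraries. Altre-KO library 1 was the highest of the 4 and Altre-KO library 2 the lowest, so the genotypes overlapped. The means were 4207 ± 74.1 CPM in Altre-WT and 4598 ± 642 CPM in Altre-KO (SD, n = 2 each), a ratio of 1.09. H4 was the most abundant class by summed CPM, with 1032 and 917 CPM in Altre-WT and 1254 and 1055 CPM in Altre-KO, a ratio of 1.18. Both Altre-KO libraries lay above both Altre-WT libraries for H4 only narrowly, and H3 behaved alike, with 689 and 656 CPM against 822 and 695 CPM (ratio 1.13). H2A summed to 936 and 845 CPM in Altre-WT and 1143.5 and 879 CPM in Altre-KO (ratio 1.14). H2B summed to 772 and 857 CPM in Altre-WT and 972 and 772 CPM in Altre-KO (ratio 1.07). H1 was the class with the lower mean in Altre-KO, 831 and 879 CPM against 859 and 743 CPM (ratio 0.937), although on the deposited RPM, which moved the median of all tested genes to a log2 fold change of 0.41, the log2 ratio of H1 was 0.39. In H2A, H2B and H1 the genotypes overlapped. Without Altre-KO library 1 the log2 ratio over all members went from 0.13 to -0.022 and that of H3 from 0.17 to 0.047. With 2 libraries a genotype, an exact permutation test of such a sum cannot reach 0.05, so none was made.

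**Figure D1:**
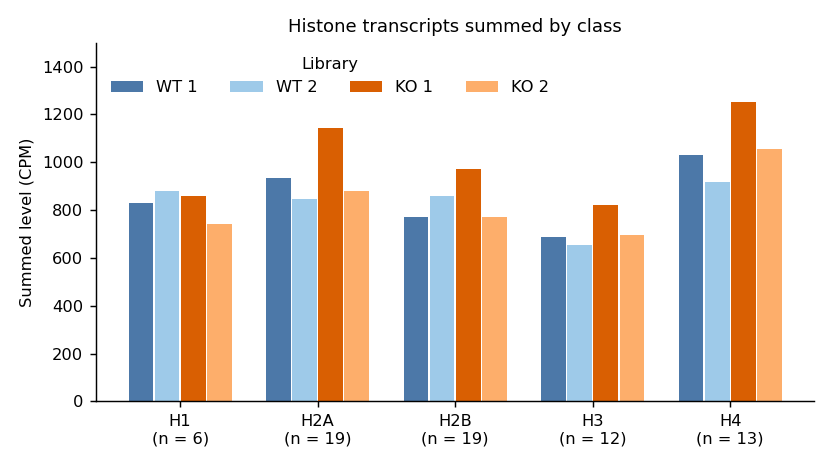
Summed CPM of the members of each histone class (vertical axis, CPM) in the 2 Altre-WT and 2 Altre-KO libraries. Each bar is 1 library and starts at 0, and n is the number of members. Altre-KO library 1 is the highest bar in H2A, H2B, H3 and H4, at 972 CPM for H2B and 1254 CPM for H4, but not in H1.

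As a share of all histone reads, H1 made up 19.5% (95% Wilson interval 18.65 to 20.41) and 21.2% (20.37 to 21.98) in Altre-WT, and 17.0% (16.45 to 17.59) and 17.9% (17.19 to 18.71) in Altre-KO. Both Altre-KO shares lay below both Altre-WT shares, but the intervals of Altre-WT library 1 and Altre-KO library 2 overlapped. H4 shares were 24.2% and 22.1% in Altre-WT and 24.8% and 25.5% in Altre-KO, and here both Altre-KO shares lay above, but the interval of Altre-WT library 1 (23.29 to 25.19) overlapped those of Altre-KO libraries 1 (24.17 to 25.48) and 2 (24.61 to 26.33). The other classes overlapped, with H2A between 20.3% and 22.6%, H2B between 18.1% and 20.6% and H3 between 15.8% and 16.8%. The intervals cover counting error only, and the shares of 1 library sum to its whole, so the classes are not independent.

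Member by member, 64 of 69 had enough reads to test (at least 2 libraries at 4.22 CPM, which is 10 estimated reads at the median depth). None of the 64 passed limma's test at an adjusted p of 0.05, where 0.0381% of all 10486 tested genes passed, and limma-voom on estimated reads also gave 0. The adjusted p over all tested genes was 0.999 for every named member, histone or not. At an unadjusted p under 0.05, 9 members were higher in Altre-KO and 0 lower, where 1.44% and 2.22% of all tested genes were. The 9 include Hist1h4m, which passed the filter on level only through the Altre-KO libraries. On the deposited RPM 14 members had an unadjusted limma p under 0.05 in either direction, as did 311 of all 10486 tested genes. In the authors' deposited table no member had a p-value under 0.05, the smallest being 0.0802, and all had an adjusted p of 1. Fitted log2 fold changes were above 0 in 48 and below 0 in 16 tested members, where 47.9% of all tested genes were above 0. On the deposited RPM the split was 60 to 4, and 49 members lay above the median of all tested genes on that scale. The median of the members was 0.18, against -0.013 for all tested genes, and the range ran from -0.82 to 2.68. Of the 64 tested members, 19 had both Altre-KO libraries above both Altre-WT libraries and 4 had both below, where 14.7% and 16.1% of all tested genes did. These are counts over members that share reads and pass a filter on level, so they do not stand for 64 separate observations.

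Over all members together, a single library carried much of this. Altre-KO library 1 was the highest of the 4 in 39 of the 64 tested members, where it was the highest in 30.7% of all tested genes, and Altre-KO library 2 was the highest in 7. The median deviation of a member from its own mean was 0.24 on the log2 scale in Altre-KO library 1 and -0.047 in Altre-KO library 2. In Altre-WT libraries 1 and 2 it was -0.099 and -0.093, and over all tested genes it lay between -0.020 and 0.031 in each library. Without Altre-KO library 1, 34 of the 64 members were above 0 and the median log2 fold change was 0.028. The classes differed in this. Their medians without that library were 0.0085 for H1, 0.21 for H2A, -0.15 for H2B, 0.13 for H3 and 0.21 for H4. With all 4 libraries they were 0.13, 0.27, 0.012, 0.13 and 0.27 in the same order. Altre-KO library 1 is also the library with 32.8% of its reads on listed genes, and the part of this in the result was not tested.

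**Figure D2:**
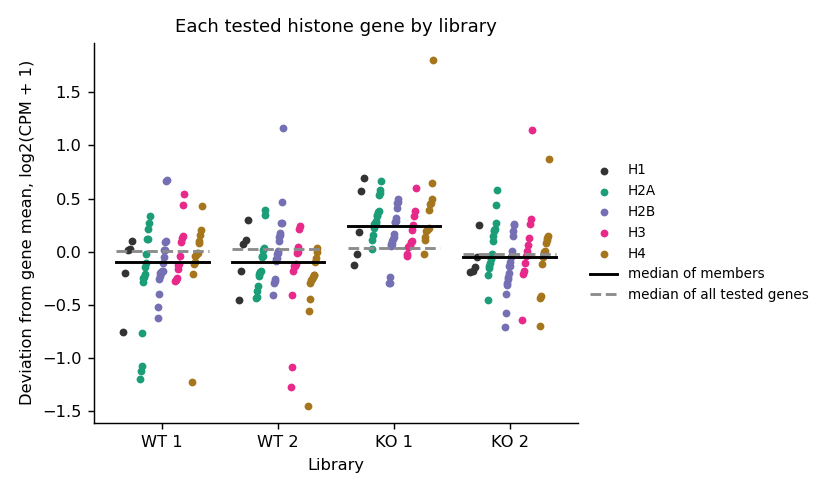
Deviation of each of the 64 tested members from its own mean over the 4 libraries (vertical axis, log2(CPM + 1)), by library, coloured by class, with the median of the members as a solid and that of all tested genes as a dashed line. The median of the members stands at 0.24 in Altre-KO library 1 and at -0.047 in Altre-KO library 2, next to -0.099 and -0.093 in Altre-WT.

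The linker histone class was dominated by 1 gene. Hist1h1c (H1.2, chr13:23738808-23740367, GRCm38), known to make a polyadenylated form as well, held 62.1% of the mean H1 level and was the member of highest CPM of all. It stood at 552 and 553 CPM in the Altre-WT libraries and 504 and 451 CPM in the Altre-KO libraries, so the Altre-KO values lay below without overlap. Its log2 fold change was -0.21 (SE 0.14), and on the deposited RPM it was 0.22, below the shift of 0.41 in the median gene. Hist1h1e (H1.4) showed the same order, with 110.5 and 134 CPM in Altre-WT and 100.1 and 95.3 CPM in Altre-KO, and a log2 fold change of -0.31 (SE 0.18), or 0.12 on the deposited RPM. Neither passed the test.

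Hist1h1b (H1.5, chr13:21779883-21780625) ran the other way. It stood at 18.6 and 28.2 CPM in Altre-WT and 52.7 and 38.5 CPM in Altre-KO, and the estimated reads were 34, 67, 172 and 91, whole in every library. The Altre-KO mean was 1.95 times the Altre-WT mean, with a log2 fold change of 0.95 (SE 0.29), an unadjusted limma p of 0.00358 and an adjusted p of 0.999. As a share of H1 reads, which also moves with Hist1h1c and the other H1 genes, Hist1h1b made up 2.24% (95% Wilson interval 1.61 to 3.11) and 3.20% (2.53 to 4.05) in Altre-WT, and 6.13% (5.30 to 7.08) and 5.18% (4.24 to 6.32) in Altre-KO. Both Altre-KO intervals lay above both Altre-WT intervals, for counting error only. Hist1h1a (H1.1) was at 36.6 and 26.1 CPM in Altre-WT and 54.2 and 32.6 CPM in Altre-KO, where the genotypes overlapped (log2 fold change 0.43, SE 0.29). Hist1h1d (H1.3) was at 114 and 138 CPM against 149 and 126 CPM, and overlapped too (0.13, SE 0.18). The testis linker histone gene Hist1h1t was at 0 in every library. The 5 detected H1 genes had whole reads in every library and shared a median of 2.25% of their 50-base windows with another gene, with Hist1h1e the highest at 32%, of which most (23.76% of its windows) were shared with Hist1h2be.

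**Figure D3:**
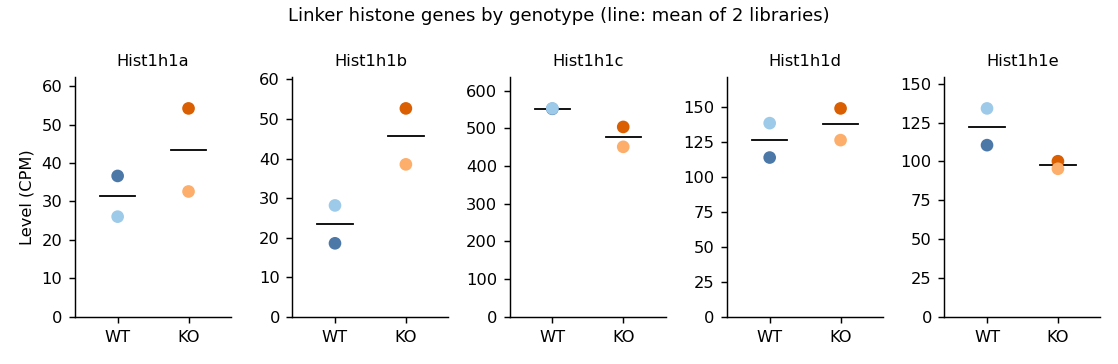
CPM of the 5 detected H1 genes (vertical axes, CPM, from 0 and scaled per gene) by genotype, each point 1 library (library 1 dark, library 2 light) and each line the mean. Hist1h1c lies at 451 to 553 CPM, lower in Altre-KO on this scale but not on the deposited RPM. Hist1h1b lies at 18.6 to 52.7 CPM, higher in both Altre-KO libraries than in both Altre-WT libraries.

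Among the H2A genes all 16 tested members had a fitted log2 fold change above 0, with a median of 0.27. In 6 of them both Altre-KO libraries lay above both Altre-WT libraries. Over all tested genes 47.9% were above 0 and 14.7% had both Altre-KO libraries above. The H2A count above 0 was 10 of 16 without Altre-KO library 1 and 11 of 16 without Altre-WT library 2. Hist2h2aa1 (chr3:96245497-96246082), an H2A gene of the chromosome 3 cluster, held 39.0% of the class and had the highest level per length of all members, 633 CPM per kilobase. It stood at 399 and 323 CPM in Altre-WT and 448 and 314 CPM in Altre-KO (log2 fold change 0.063, SE 0.17), and turned to -0.19 without Altre-KO library 1. With its near-identical neighbour Hist2h2aa2 the sum was 412, 333, 467 and 331 CPM in the order above, a ratio of 1.07, and the genotypes overlapped.

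The next H2A genes by level also overlapped between genotypes. Hist3h2a was at 85.9 and 76.5 CPM in Altre-WT and 105.3 and 83.8 CPM in Altre-KO (log2 fold change 0.21). Its values did not separate the genotypes. Hist1h2ac was at 68.4 and 85.6 CPM in Altre-WT and 100.5 and 82.0 CPM in Altre-KO (0.24). The 3 H2A members of smallest p were of lower level. Hist1h2ad was at 11.2 and 19.1 CPM in Altre-WT and 31.9 and 22.0 CPM in Altre-KO, without overlap (log2 fold change 0.81, SE 0.36, unadjusted limma p 0.0323). Hist2h2ab was at 1.64 and 4.62 CPM in Altre-WT and 7.65 and 7.62 CPM in Altre-KO, on 3, 11, 25 and 18 reads (1.16, SE 0.60). The low read numbers of Hist2h2ab leave wide errors. Hist1h2ag was at 10.6 and 33.9 CPM in Altre-WT and 33.5 and 35.1 CPM in Altre-KO (0.81, SE 0.38). Here Altre-WT library 1 alone was low. Without Altre-WT library 2 the log2 fold change of Hist1h2ag was 1.61 and passed the test (limma adjusted p = 0.0398), and without Altre-WT library 1 it was 0.017. Hist1h2aa, a testis H2A gene, was at 0 in every library. Hist1h2al, annotated as a pseudogene, was at 2.18 to 3.91 CPM and was not tested.

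The H2B genes were divided, 9 above and 9 below 0, with a median of 0.012, where 47.9% of all tested genes were above 0. On the deposited RPM 15 were above and 3 below 0, but the median of all tested genes there was 0.41. Of the 18 tested H2B members, 9 lay above that median. Without Altre-KO library 1 the count above 0 was 5 of 18. The levels were more even than in H1 or H2A: the leading gene, Hist1h2be, held 17.6% of the class. Hist1h2be was at 128 and 147 CPM in Altre-WT and 179.9 and 137 CPM in Altre-KO (log2 fold change 0.19, SE 0.18). Hist1h2bg was at 97.6 and 129 CPM in Altre-WT and 123 and 110.5 CPM in Altre-KO (0.055, SE 0.19). Hist2h2bb was at 97.9 and 116 CPM in Altre-WT and 128 and 84.7 CPM in Altre-KO (-0.031, SE 0.20), or 0.40 on the deposited RPM. All 3 overlapped between genotypes. Hist2h2bb, like Hist2h2aa1, shares 100% of its windows with an annotated antisense gene, and whether the counting used strand is not stated, so reads of the partners cannot be told apart. Among the H2B members of smallest p, Hist1h2bj was at 17.6 and 19.5 CPM in Altre-WT and 31.5 and 28.1 CPM in Altre-KO (0.66, SE 0.31, unadjusted limma p 0.0453). Hist3h2ba was at 16.4 and 14.7 CPM in Altre-WT and 27.9 and 22.9 CPM in Altre-KO (0.67, SE 0.33). Both were higher in Altre-KO without overlap. Hist1h2bf was lower without overlap, at 19.5 and 13.4 CPM in Altre-WT and 9.93 and 7.67 CPM in Altre-KO (-0.82, SE 0.41). Hist1h2bq and Hist1h2br had the same value in every library and share 97.3% and 88.7% of their windows with each other, so they carry 1 measurement between them. Both are counted among the H2B members below 0, as is the pseudogene Hist3h2bb-ps (-0.12).

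H2A and H2B genes often stand head to head and share the stretch between their start sites. There were 13 such divergent pairs with annotated gene models 172 to 305 bases apart, the closest being Hist3h2a and the pseudogene Hist3h2bb-ps. Some of these models, such as those of Hist1h2aa and Hist1h2ba, hold only coding sequence. The gaps are therefore not always distances between transcription start sites. In 11 pairs both genes were tested, and in 4 of these the fitted log2 fold changes had the same sign. Since all 16 tested H2A members were above 0, this only counts the H2B partners above 0. It cannot show whether partners moved together. Hist1h2ag and Hist1h2bj were both above 0 (0.81 and 0.66), whereas Hist1h2ad (0.81) and Hist1h2bf (-0.82), 184 bases apart, lay on opposite sides without overlap between genotypes. Some of these promoters carry the octamer ATTTGCAT, the motif read by the Oct factors and known from H2B genes. In the RefSeq promoters of GRCm38.p6, 250 bases before to 50 bases after the start, both strands searched, it stood in 7 of 18 H2A and 7 of 16 H2B members and in 0 of the H1, H3 and H4 members matched, against 1.74% of all 32851 promoters. The promoter of Hist1h2bg (chr13:23571150-23571449, + strand) is shown as 1 with all 3 motifs searched, and that of Hist1h1b (chr13:21780576-21780875, - strand) because this gene had the largest fitted value of the linker histones. Capitals mark ATTTGCAT, TATAAA and CCAAT on either strand, so CCAAT on the other strand reads ATTGG.
Hist1h2bg: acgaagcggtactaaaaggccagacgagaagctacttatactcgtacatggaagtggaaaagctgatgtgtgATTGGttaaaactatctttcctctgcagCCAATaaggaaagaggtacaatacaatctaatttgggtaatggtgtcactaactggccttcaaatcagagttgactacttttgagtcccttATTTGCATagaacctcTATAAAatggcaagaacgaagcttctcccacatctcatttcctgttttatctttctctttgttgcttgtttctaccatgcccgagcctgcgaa
Hist1h1b: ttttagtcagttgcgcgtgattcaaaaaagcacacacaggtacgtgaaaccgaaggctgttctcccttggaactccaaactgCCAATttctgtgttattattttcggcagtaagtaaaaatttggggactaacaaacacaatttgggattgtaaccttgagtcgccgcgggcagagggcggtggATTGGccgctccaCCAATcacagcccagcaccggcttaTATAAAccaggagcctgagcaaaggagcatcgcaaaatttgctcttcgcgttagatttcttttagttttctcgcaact
TATAAA stood in 35 of 62 matched members (56.5%) and in 13.6% of all promoters, and CCAAT in 53 of 62 (85.5%) and 37.4%. CCAAT was found in every matched H1, H2A, H2B and H3 promoter but in only 3 of 12 H4 promoters. Of the 14 members with the octamer 12 were tested, with 11 above 0 and a median log2 fold change of 0.21. Altre-KO library 1 was the highest in 11 of the 12. Over all tested genes 47.9% were above 0, and that library was the highest in 30.7%. It was also the highest in 12 of 16 tested H2A and 10 of 18 tested H2B members. Some octamer members, such as Hist1h2ae and Hist1h2bg, are partners of 1 pair, so the counts are not separate observations. A match is a description of the letters and not of binding.

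Of the 12 H3 genes 9 were above 0 and 3 below, with a median of 0.13, where 47.9% of all tested genes were above 0. Hist1h3f (chr13:23544052-23545312) was the leading H3 gene by CPM, with 23.6% of the class. It stood at 137 and 153 CPM in Altre-WT and 209.6 and 174 CPM in Altre-KO, without overlap, a ratio of 1.32 (log2 fold change 0.39, SE 0.17, unadjusted limma p 0.0298). Hist1h3e was at 154 and 127 CPM in Altre-WT and 161 and 120.4 CPM in Altre-KO, and its log2 fold change of -0.0060 changed sign under the other scalings. The level of Hist1h3e was thus alike in the means and spread within each genotype. Hist1h3c was at 79.5 and 74.1 CPM in Altre-WT and 84.5 and 89.3 CPM in Altre-KO (0.18). Hist1h3h was at 45.4 and 38.1 CPM in Altre-WT and 77.3 and 49.8 CPM in Altre-KO, without overlap (0.57, SE 0.25, unadjusted limma p 0.0318). Hist2h3c1 was at 10.2 and 3.35 CPM in Altre-WT and 9.82 and 22.2 CPM in Altre-KO, so the genotypes overlapped (1.18, SE 0.51). The sum of Hist2h3c1 and its near copy Hist2h3c2 was 41.5, 13.6, 39.9 and 49.8 CPM, in which Altre-WT library 2 alone was low.

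Of the 13 H4 genes 11 were above 0 and 2 below, with a median of 0.27, and in 5 both Altre-KO libraries lay above both Altre-WT libraries. Over all tested genes 47.9% were above 0 and 14.7% had both Altre-KO libraries above. Hist1h4c (chr13:23697635-23698454), the H4 gene of highest CPM, was at 169 and 187 CPM in Altre-WT and 225 and 207 CPM in Altre-KO (log2 fold change 0.28, SE 0.16). Hist1h4h was at 139 and 102 CPM in Altre-WT and 191 and 140.2 CPM in Altre-KO (0.46, SE 0.19, unadjusted limma p 0.0257). Both were higher without overlap, Hist1h4h only narrowly. Hist1h4d was at 163.5 and 177 CPM in Altre-WT and 175 and 196 CPM in Altre-KO, and overlapped (0.12, SE 0.16). Per kilobase, Hist1h4k led the class at 320.3 CPM, but its annotated model of 312 bases holds only coding sequence, which raises this value. It also shares 71.5% of its windows with other genes.

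Hist1h4m (chr13:21811746-21812147) had the largest fitted value of all members, on few reads and beside a near-identical copy. It was at 0.34 and 0.15 CPM in Altre-WT, under 1 estimated read in each library (0.6 and 0.4), and at 9.96 and 4.74 CPM in Altre-KO (32.5 and 11.2 reads). Its log2 fold change of 2.68 (SE 0.76, unadjusted limma p 0.00181) depended on the pseudocount, at 4.40 with 0.1 and 1.20 with 5. Hist1h4m shares 89.8% of its 50-base windows with Hist1h4n, whose stem-loop and flanking bases shown above are the same over the stretch annotated for both. The sum of the 2 genes was 98.4 and 78.6 CPM in Altre-WT and 116 and 95.3 CPM in Altre-KO, which overlapped, with a ratio of 1.19 close to that of the H4 class. The opposite case was Hist1h2ap, at 1.07 and 7.93 CPM in Altre-WT and 0.04 and 0.78 CPM in Altre-KO. Summed with its near copy Hist1h2ao the values were 44.3, 35.2, 52.6 and 26.6 CPM and overlapped, with a ratio of 0.996.

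**Figure D4:**
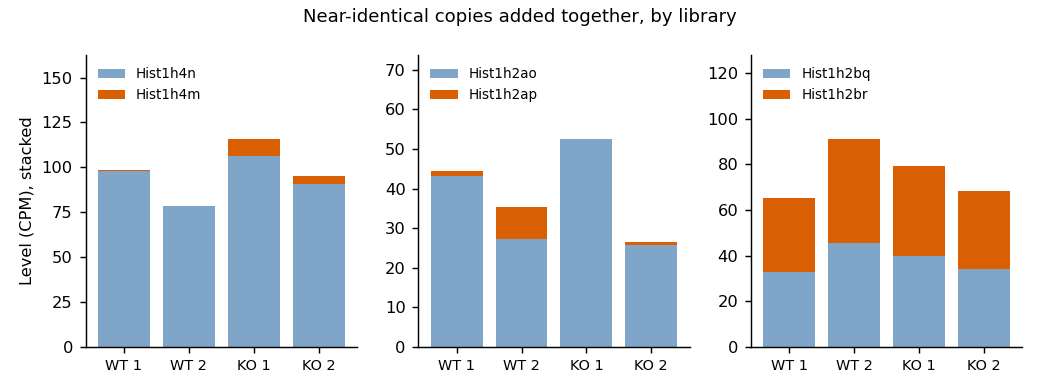
CPM of 3 near-identical member pairs stacked on each other (vertical axes, CPM from 0), with 1 bar per library. Taken by itself, Hist1h4m separates the genotypes, from 0.15 to 9.96 CPM. Its sum with Hist1h4n does not, at 98.4 and 78.6 CPM in Altre-WT and 116 and 95.3 CPM in Altre-KO. Hist1h2ap by itself also separates them, at 1.07 and 7.93 CPM in Altre-WT and 0.04 and 0.78 CPM in Altre-KO. Its sum with Hist1h2ao does not.

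By place in the genome (GRCm38), the largest stretch lies at chr13:23531050-23764406 and holds 29 members, whose sum in Altre-KO was 1.07 times that in Altre-WT. A second stretch of 18 members at chr13:21715763-21837530 had a ratio of 1.13, and 5 members at chr13:22035164-22043676 one of 1.31. The 10 members at chr3:96219865-96270132 had a ratio of 1.11 and the 3 at chr11:58948920-58956830 one of 1.21. Hist4h4 on chromosome 6 had a ratio of 1.03. Both Altre-KO libraries lay above both Altre-WT libraries in the stretch of 5 members (168 and 128 CPM against 104 and 121 CPM) and in that on chromosome 11 (146 and 116 CPM against 114 and 103 CPM). In the stretches of 29, 18 and 10 members and in Hist4h4 the genotypes overlapped. The members outside these stretches, Hist1h2aa, Hist1h2ba and Hist1h2al, were at or near 0 or too low to test.

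No gene passed the test in any of the related lists, which hold variant histones and the genes of histone message processing, histone handling, DNA replication and mitosis. Of the variant histone genes 9 were tested, with 5 above 0 and a median log2 fold change of 0.0061. H3f3a, which encodes H3.3, was at 312 and 293 CPM in Altre-WT and 309 and 238 CPM in Altre-KO (-0.16, or 0.27 on the deposited RPM). H2afz was at 109 and 123 CPM in Altre-WT and 151 and 121 CPM in Altre-KO (0.22). H2afy, which encodes macroH2A1, was at 253 and 232 CPM in Altre-WT and 208 and 209 CPM in Altre-KO, without overlap (-0.21, or 0.22 on the deposited RPM). Only H2afy of these 3 separated the genotypes. Of the genes for transcription and 3′ processing of histone messages 26 were tested, with 14 above 0 and a median of 0.024. Slbp was at 63.4 and 83.7 CPM in Altre-WT and 86.7 and 85.5 CPM in Altre-KO, without overlap (0.24). Hinfp, the activator of H4 genes, was at 19.1 and 26.1 CPM in Altre-WT and 29.1 and 41.5 CPM in Altre-KO, without overlap (0.62). Ncbp2, of the cap-binding complex, was at 36.1 and 29.4 CPM in Altre-WT and 26.6 and 16.1 CPM in Altre-KO, without overlap (-0.63). These 3 genes, all of the processing list, had no common direction. Snrpd3, an Sm protein of small ribonucleoproteins, was at 11.5 and 14.7 CPM in Altre-WT and 8.27 and 8.47 CPM in Altre-KO (-0.58).

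The histone chaperone genes gave 15 of 27 above 0 and a median of 0.025. Hjurp, which loads the centromeric H3 variant, was at 59.3 and 76.2 CPM in Altre-WT and 37.2 and 51.9 CPM in Altre-KO, without overlap (log2 fold change -0.60, unadjusted limma p 0.0188). Cabin1, of the HIRA complex, was at 149 and 126 CPM in Altre-WT and 95.5 and 136 CPM in Altre-KO (-0.26, or 0.17 on the deposited RPM). Npm1, a nucleolar chaperone, was at 145 and 158 CPM in Altre-WT and 205 and 154 CPM in Altre-KO (0.23). Both overlapped between genotypes.

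Of the DNA replication genes 43 were tested, with 17 above 0 and a median of -0.038, next to 0.18 for the histone members. Rrm2, a subunit of ribonucleotide reductase, was at 8.75 and 6.73 CPM in Altre-WT and 17.8 and 16.9 CPM in Altre-KO, without overlap (1.08, SE 0.41, unadjusted limma p 0.0154). Mcm4, of the replicative helicase, was at 125 and 101 CPM in Altre-WT and 78.4 and 93.1 CPM in Altre-KO (-0.39, or 0.038 on the deposited RPM). Orc6, of the origin recognition complex, was at 2.73 and 15.6 CPM in Altre-WT and 12.6 and 16.5 CPM in Altre-KO (0.97), where Altre-WT library 1 alone was low. Rrm2 and Mcm4 thus separated the genotypes in opposite directions on the CPM scale, and Orc6 did not separate them. Pcna, the sliding clamp, was at 89.1 and 90.4 CPM in Altre-WT and 120.3 and 81.3 CPM in Altre-KO (0.14). Of the mitosis genes 23 were tested, with 13 above 0 and a median of 0.094. Kif11, a spindle motor, was at 28.4 and 11.8 CPM in Altre-WT and 32.5 and 28.4 CPM in Altre-KO (0.69). Cdk1, the mitotic kinase, was at 4.37 and 3.78 CPM in Altre-WT and 7.04 and 10.2 CPM in Altre-KO, without overlap (0.90). Mki67, a marker of cycling cells, was at 83.7 and 83.2 CPM in Altre-WT and 49.9 and 81.3 CPM in Altre-KO (-0.38, or 0.043 on the deposited RPM). Altre-KO library 1, the highest of the 4 in summed histone CPM, was the lowest in Mki67, and also in Foxp3, the Treg lineage factor, at 160.4, 140.5, 79.5 and 162 CPM. The differences between these lists and the histone members were not tested.

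**Figure D5:**
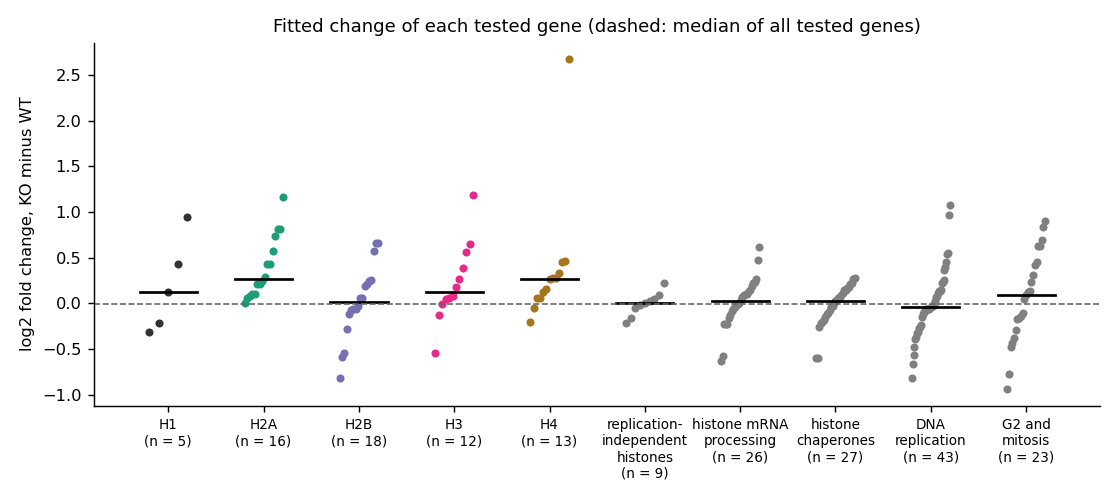
Log2 fold change of each tested gene, Altre-KO over Altre-WT on log2(CPM + 1) (vertical axis), for the 5 histone classes and 5 related lists (horizontal axis), each point 1 gene, each solid line a median and the dashed line the median of all tested genes. The medians are 0.27 for H2A and H4, 0.012 for H2B and -0.038 for the replication genes, and no point passed the test.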

How the data were processed

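Per the labels' protocols, the RNeasy Micro kit served for RNA extraction and a SMARTER mRNA-Seq kit for the libraries. The submitters' processing notes name STAR, cutadapt, DESeq2 and the build mm10 (GRCm38) but no roles; neither the read counter nor the gene annotation is stated there. The deposited CPM columns, named so in the file headers, add up, over the listed genes, to an equal total in every library. The deposited RPM columns carry no unit in the file headers; from the values they are reads scaled to a larger total with 0.0001 added. The authors' deposited table also holds genotype means in CPM, the log2 of their ratio, with the authors' p-value and its adjusted form; the file headers name no test.

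Estimated reads were computed from the steps between RPM values, and 92.9% to 93.8% of values came out whole within 0.02 of a read. The rest were fractional, so no count model served as the main test. Limma-voom on estimated reads was run as an alternative. Chi-square over degrees of freedom was 3.50 between the Altre-WT and 10.3 between the Altre-KO libraries, above sampling noise. Genes with at least 2 libraries at 4.22 CPM or more (10486) were tested with limma 3.58.1 in R 4.3.3, with variances following the mean-variance trend, on log2(CPM + 1), with genotype as the only term and Benjamini-Hochberg adjustment over all tested genes at a threshold of 0.05. Log2 fold changes are on this scale and understate changes of low genes. The fit was tested on simulated data. Sums, shares and class counts carry no test.

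All members were found in GENCODE M21, and 62 of 69 in the RefSeq promoter table. Named were, in each class, the 3 members of highest mean CPM and the 3 of smallest p, the 3 of smallest p in each related list, and Slbp, Mki67, Pcna and Foxp3. Other members were singled out after their values were seen. The members and lists were chosen with earlier results of these data known. Alternatives were the RPM columns, other scalings, pseudocounts and filters, limma-voom, a replicate block and leaving out each library.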

Additional observations from a re-analysis of the deposited data

How the results depend on the processing

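No histone member passed the threshold under any alternative except without Altre-WT library 2, so leaving out 1 library gave 0 to 1 members (Hist1h2ag). Genes past it among all tested numbered 4, 2 with a pseudocount of 0.1, and 6 to 16 with 1 library left out (16 without Altre-WT library 2, 14 without Altre-KO library 2). The median log2 fold change of the members, 0.18, was 0.61 on the RPM columns and 0.0275 to 0.33 with 1 library left out, lowest without Altre-KO library 1 and highest without Altre-KO library 2. It was 0.13 over the 18 tested whole-read members, an alternative chosen after seeing the data. On the RPM columns the log2 ratios of the class sums were 0.39 for H1, 0.69 for H2A, 0.59 for H2B, 0.66 for H3, 0.74 for H4 and 0.62 for all members. With 1 library left out they ran from -0.20 to 0.0070 for H1, -0.019 to 0.36 for H2A, -0.077 to 0.26 for H2B, 0.047 to 0.29 for H3, 0.11 to 0.36 for H4 and -0.0217 to 0.26 for all. A lone library left in a genotype is assumed to vary like the others.

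Among named genes, the RPM columns turned the sign of Hist1h1c (0.22), Hist1h1e (0.12), Hist2h2bb (0.40), Hist1h3e (0.43), H2afy (0.22), H3f3a (0.27), Cabin1 (0.17), Mcm4 (0.0378), Mki67 (0.0434) and Foxp3 (0.0325), while the median gene moved to 0.41. Hist1h3e also turned with median-of-ratios factors (0.0241), upper-quartile scaling (0.0115) and limma-voom (0.0187). Leaving out 1 library turned the sign of several genes, whose values then ran as follows: Hist1h1d from -0.0132 to 0.27, Hist2h2aa1 from -0.19 to 0.32, Hist1h2be from -0.0058 to 0.39, Hist1h2bg from -0.14 to 0.25, Hist2h2bb from -0.33 to 0.26, Hist1h3e from -0.21 to 0.20, H3f3a from -0.35 to 0.0294, Orc6 from -0.10 to 2.05, Pcna from -0.14 to 0.42 and Foxp3 from -0.91 to 0.11. Of the 44 named genes, 28 kept their sign under every alternative run. The cause of these shifts was not tested.

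The replicate numbers pair no samples in the labels, and the deviations of same-numbered libraries had a correlation of -0.010 over genes. With the replicate number as a block, 6 genes in all and 0 histone members passed, with a median of 0.18.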
